A study of Mus musculus with 8 samples.

Results

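The mouse Ifi200 genes and Aim2 encode the PYHIN proteins, of which 7 were followed here, namely Ifi202b, Ifi203, Ifi204, Ifi205, Ifi207, Mndal and Aim2. They were taken by symbol from a table of 55450 genes, and all 7 had a row there. Messenger RNA came from cells grown out of the bone marrow of SS dry eye mice. The design text and the cell type label call the cells dendritic cells, while the sample titles call them BMDMs, an abbreviation common for macrophages. The treated cultures received recombinant S100A8/A9, a pair of calcium-binding proteins released by myeloid cells, and the control cultures received phosphate-buffered saline, called vehicle here. There were 4 libraries of each kind. Those numbered 1 to 3 stood in a first expression table and the pair numbered 4 in a second one that the authors made separately, so tests used replicates 1 to 3. The mouse strain, sex and age, the dose and the time of treatment are not stated in the sources used here, nor whether replicates came from separate animals. The series compared the groups to look for signaling programs that S100A8/A9 engages in these cells.

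PYHIN proteins join, in most members, a pyrin domain that contacts other proteins to a HIN domain that binds DNA. AIM2 senses DNA in the cytosol and gathers the adaptor ASC and caspase-1 into an inflammasome, which matures interleukin-1β and interleukin-18 and cuts gasdermin D. The mouse protein of Ifi202b carries HIN domains without a pyrin domain and can hold DNA away from AIM2. Ifi204 encodes the mouse relative of human IFI16, which signals through STING to type I interferon. Mndal is named for its likeness to the human myeloid nuclear differentiation antigen, and Ifi203, Ifi205 and Ifi207 encode further family proteins. The Ifi200 genes are named for their induction by interferon, and their number and expression vary between mouse strains.

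Of the 6 genes at 1 FPKM or more in every library of replicates 1 to 3, 5 had a higher value in the S100A8/A9 library than in its vehicle library throughout, as did 19.4% of all genes tested, and Aim2 did not. Ifi205, the remaining gene, reached 1 FPKM only with S100A8/A9. Geometric mean ratios over these pairs ran from 1.51-fold for Mndal to 2.24-fold for Ifi204, whereas Aim2 was at 1.01-fold. Ifi202b and Ifi203 rose in limma with the replicate number as a block, where 0.501% of all genes tested were called higher, and no member passed without the block. Both calls were lost with the block under 4 other scalings, without the expression filter and with all 8 libraries. In replicate 4 the ratios of all 7 genes lay between 0.852 and 1.11.

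The 7 genes lie together on chromosome 1 in mm10, within a span of 681 kb from Aim2 to Ifi205. All 13 protein-coding genes annotated in this span belong to the family, the other 6 being Ifi206, Ifi208, Ifi209, Ifi211, Ifi213 and Ifi214. Aim2 (ENSMUSG00000037860) is on the plus strand at chr1:173350879-173466040. The 6 Ifi200 members are on the minus strand. Ifi207 (ENSMUSG00000073490) at chr1:173723427-173741747 and Ifi204 (ENSMUSG00000073489) at chr1:173747293-173766943 are neighbors. Mndal (ENSMUSG00000090272) at chr1:173849126-173942491 overlaps Ifi203 (ENSMUSG00000039997) at chr1:173920407-173942672, and their exons have 37 bases in common on the same strand. Ifi202b (ENSMUSG00000026535) at chr1:173962568-173982744 and Ifi205 (ENSMUSG00000054203) at chr1:174011998-174031810 close the span.

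**Figure D1:**
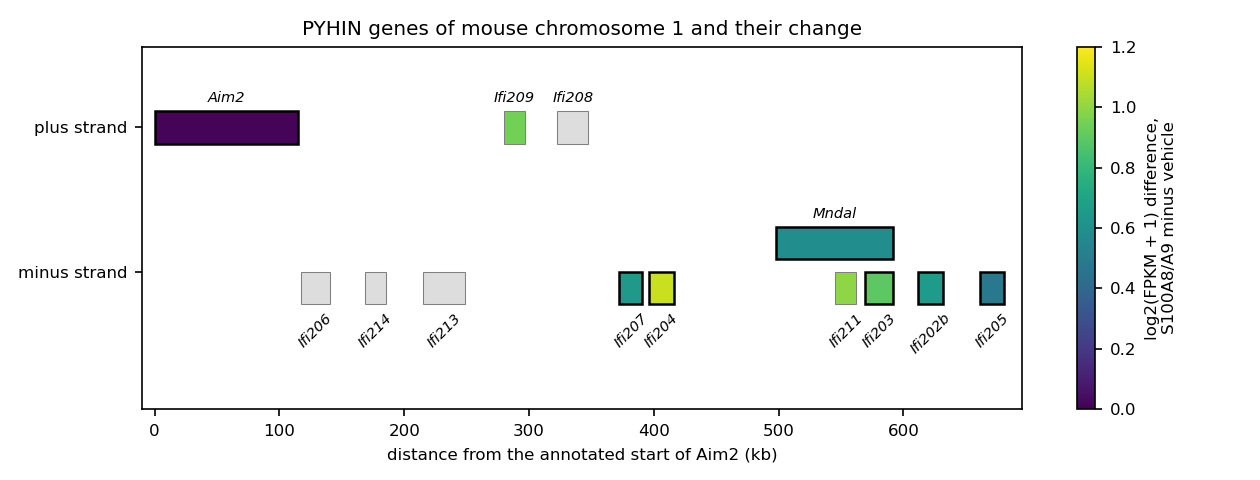
Gene bodies of the 13 PYHIN genes by distance from the annotated start of Aim2 (kb) and by strand, colored by the difference in mean log2(FPKM + 1), S100A8/A9 minus vehicle, in replicates 1 to 3. Black outlines mark the 7 genes followed here and grey fill marks genes below the expression filter. Aim2 is at 0.01, and the Ifi200 members at the other end of the span are between 0.48 and 1.10. The 0.48 is that of Ifi205, which passed the filter only through its S100A8/A9 libraries.

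Promoter sequence was read to see what these neighbors share. RefSeq windows of build GRCm38.p6, from 250 bases before to 50 bases after a transcript start, were found for 6 of the 7 genes, not for Ifi204. The motif GAAANNGAA, the core of the interferon-stimulated response element, was searched on both strands, as was TTCNNNGAA, the gamma-activated site, which reads the same on both strands. GAAANNGAA occurred in 8.56% of 32851 windows of all genes and TTCNNNGAA in 8.30%. Counted by gene, with a match in any of its windows, the shares were 9.76% and 9.55% of 27025 genes. Ifi203, Ifi205, Ifi207 and Mndal held GAAANNGAA upstream of a start. So did 5 of the 6 other PYHIN genes, namely Ifi206, Ifi208, Ifi211, Ifi213 and Ifi214. Of these other genes, Ifi211 alone passed the expression filter. Ifi209, which also passed it and was higher in each pair, held neither motif. Ifi202b held only TTCNNNGAA and the Aim2 window held neither motif. No window of these genes held both, so the motifs did not overlap there. Besides the matches printed here, Ifi205 held GAAANNGAA on the opposite strand at position 24 after the start, and a second Mndal window held it on the opposite strand at position -53. The stretches below run 5′ to 3′ on the gene's strand, with the matched motif in capitals. They are shown because Ifi203, Mndal, Ifi207 and Ifi205, with their relative Ifi211, carry the same element, while Ifi202b and Aim2 lack it. Whether the element goes with the change of a gene was not tested. The Aim2 stretch, with no motif, covers positions -81 to -13 from the start.
Ifi203: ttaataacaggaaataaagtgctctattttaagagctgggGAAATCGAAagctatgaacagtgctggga
Mndal: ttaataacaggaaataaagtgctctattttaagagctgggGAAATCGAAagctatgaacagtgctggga
Ifi207: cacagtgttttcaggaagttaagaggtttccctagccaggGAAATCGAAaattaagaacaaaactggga
Ifi211: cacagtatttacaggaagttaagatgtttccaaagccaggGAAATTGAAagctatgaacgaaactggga
Ifi205: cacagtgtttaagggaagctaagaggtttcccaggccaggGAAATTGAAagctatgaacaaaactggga
Ifi202b: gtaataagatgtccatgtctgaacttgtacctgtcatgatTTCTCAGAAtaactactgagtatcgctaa
Aim2: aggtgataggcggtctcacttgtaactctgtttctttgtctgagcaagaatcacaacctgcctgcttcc

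The stretches of Ifi203 (chr1:173942499-173942567) and Mndal (chr1:173880195-173880263) were identical over all 69 bases, although they lie apart on the chromosome. Their match began at position -35 and -36 from a transcript start. In Ifi207 (chr1:173741822-173741890) it began at position -41, and this stretch matched that of Ifi205 (chr1:174031861-174031929) at 59 of 69 bases. In Ifi205 the match began farther out, at position -134. The remaining stretches lie at chr1:173913055-173913123 for Ifi211 and chr1:173982964-173983032 for Ifi202b, both on the minus strand like the others, and at chr1:173420523-173420591 on the plus strand for Aim2. A match is a property of the reference sequence and does not show that a factor binds there. The strain of the mice is not stated, so their own promoters, that of Ifi202b included, may differ from the reference.

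By their means over replicates 1 to 3, Mndal and Ifi202b were the most abundant members and Ifi205 the least, in both groups. FPKM, which scales fragments to exon length and to library size, allows levels of different genes to be set side by side. With S100A8/A9 the means and SDs over replicates 1 to 3 (n = 3) were 47.6 ± 18.9 FPKM for Mndal, 45.1 ± 16.3 for Ifi202b, 34.7 ± 13.9 for Ifi207, 33.3 ± 16.8 for Ifi203, 29.2 ± 16.5 for Ifi204, 14.2 ± 0.886 for Aim2 and 1.56 ± 0.312 for Ifi205. With vehicle they were 29.98 ± 5.69 FPKM for Mndal, 27.5 ± 6.27 for Ifi202b, 20.9 ± 5.62 for Ifi207, 16.4 ± 5.35 for Ifi203, 14.1 ± 0.358 for Aim2, 11.96 ± 3.68 for Ifi204 and 0.827 ± 0.1501 for Ifi205 (SD, n = 3). In both groups the mean ± SD ranges of neighbors in this order overlapped, except that Ifi205 lay below the rest. The order was the same in both groups apart from Aim2 and Ifi204, which changed places. It did not hold in every library: in S100A8/A9 replicate 3 Ifi202b was above Mndal, and in both libraries of replicate 4 Mndal was below Ifi202b and Aim2.

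Ifi204, the relative of IFI16, had 45.97, 28.7 and 13.03 FPKM with S100A8/A9 in replicates 1, 2 and 3, against 13.8, 14.4 and 7.73 FPKM with vehicle. The ratio within each pair was 3.34, 2.00 and 1.69. Replicate 3 was lowest in both groups, and its S100A8/A9 library lay below the vehicle libraries of replicates 1 and 2, so the groups overlapped. Ifi203 had 49.8, 34.0 and 16.1 FPKM with S100A8/A9, against 20.7, 18.1 and 10.4 FPKM with vehicle, with ratios of 2.41, 1.88 and 1.55. As in Ifi204, each treated library stood above its own vehicle library while the groups overlapped through replicate 3.

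Ifi202b, the decoy without a pyrin domain, had 61.2, 45.4 and 28.7 FPKM with S100A8/A9, against 33.0, 28.7 and 20.7 FPKM with vehicle. Its ratios of 1.85, 1.58 and 1.39 lay closer together than those of Ifi204. Ifi207 had 41.8, 43.6 and 18.6 FPKM with S100A8/A9, against 22.7, 25.4 and 14.6 FPKM with vehicle, with ratios of 1.84, 1.71 and 1.27. Mndal, which had the highest mean, had 64.98, 50.4 and 27.4 FPKM with S100A8/A9, against 34.2, 32.2 and 23.5 FPKM with vehicle. Its ratio fell as low as 1.17 in replicate 3, against 1.90 and 1.56 in the other pairs. Replicate 3 was the lowest library of each group in all 3 of these genes, and the groups overlapped in each.

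Ifi205 was near the limit of the filter, with 1.72, 1.76 and 1.201 FPKM with S100A8/A9, against 0.9998, 0.749 and 0.732 FPKM with vehicle. It was the only member whose groups did not overlap, with ratios of 1.72, 2.35 and 1.64. It passed the filter of at least 1 FPKM in at least 3 of 6 libraries only through its S100A8/A9 libraries, so a difference without overlap was built into its being tested and its values are given as a description.

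**Figure D2:**
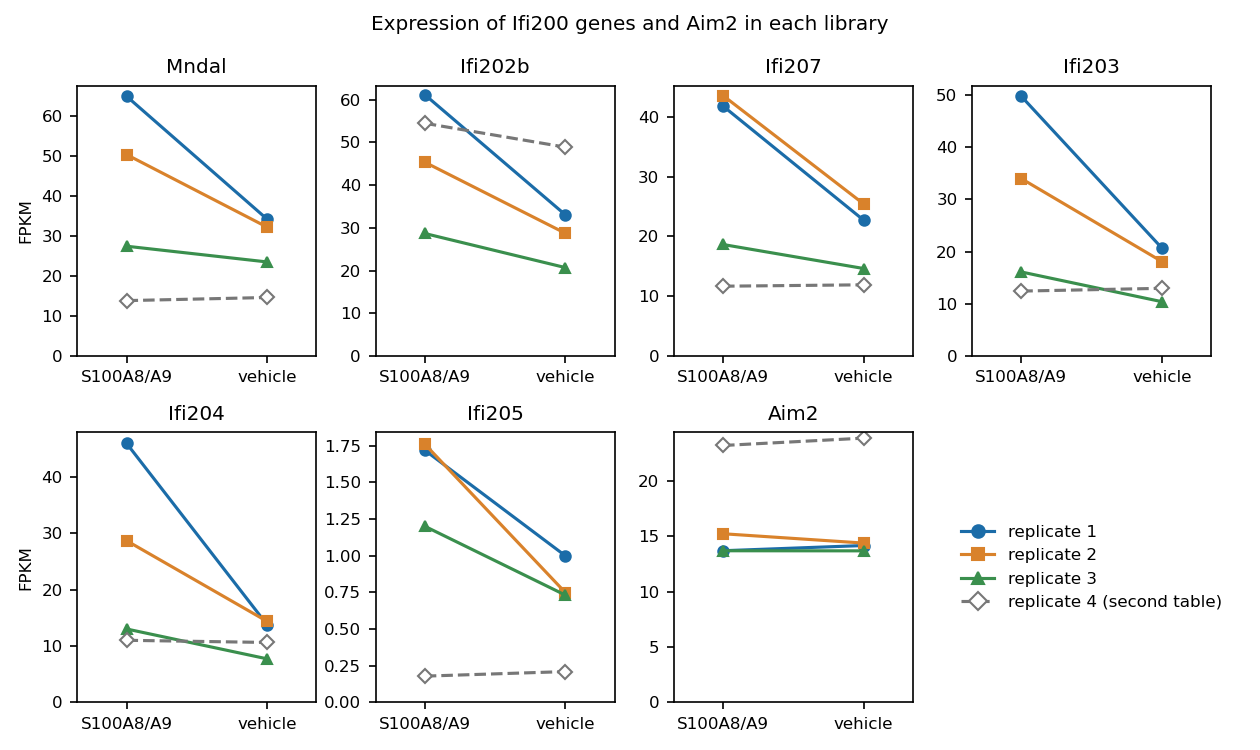
FPKM of each gene in each library, with S100A8/A9 at the left of each panel and vehicle at the right, and lines joining libraries of the same replicate number. The solid lines of replicates 1 to 3 slope down toward vehicle in every Ifi200 gene and are nearly flat in Aim2, where ratios run from 0.967 to 1.06. The slope of the solid lines of Ifi205 was built into its passing the filter. The dashed lines of replicate 4, from the second table, follow ratios from 0.852 in Ifi205 to 1.11 in Ifi202b.

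Aim2 was at nearly the same level in both groups. It had 13.7, 15.2 and 13.7 FPKM with S100A8/A9, against 14.15, 14.4 and 13.7 FPKM with vehicle, and ratios of 0.967, 1.06 and 1.00. The difference in mean log2(FPKM + 1) was 0.01, with a 95% interval of -0.20 to 0.23 in limma without the block and -0.15 to 0.17 with it. Its sign turned negative under each of 4 other scalings of the libraries. That Aim2 differed from the Ifi200 genes in its change was not tested as such.

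All 7 genes entered the limma fit on log2(FPKM + 1), across 11387 genes with Benjamini-Hochberg adjustment at 0.05. Without the block 0 of the 7 members passed, with an adjusted p of 0.9998 for each, as did 0 of all genes (0%), of which 344 had an unadjusted p under 0.05. Libraries of the same number deviated together in both groups, so a fit in which the replicate number is a block is given beside it. With the block 2 of the 7 members rose, against 0.501% of all genes tested that were called higher. These were Ifi203, whose log2 difference was 0.90 ± 0.12 (SE; adjusted p = 0.0443 in limma), and Ifi202b, with 0.65 ± 0.088 and the same adjusted p. Ifi204 had the largest difference of the members, 1.10 ± 0.18 (SE), but a wider spread between pairs, and its adjusted p in limma with the block was 0.0717. For Ifi207 the difference was 0.65 ± 0.11 (adjusted p = 0.0829) and for Mndal 0.58 ± 0.13 (0.192, SE in both cases). For Aim2 the adjusted p with the block was 0.989.

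The calls of Ifi202b and Ifi203 were lost under several settings. In limma with the block the adjusted p-values of Ifi202b and Ifi203 were 0.0984 and 0.0630 without replicate 1 and 0.0757 and 0.0729 without replicate 3. With no filter both stood at 0.839, over 8 libraries they were 0.278 and 0.364, and under 4 other scalings they ran from 0.0561 to 0.158. Ifi204, in turn, passed without replicate 1 (adjusted p = 0.0438) and without replicate 2 (0.0205), but not without replicate 3 (0.114). Of the 6 members at 1 FPKM or more in every library, 0 had each S100A8/A9 library above all vehicle libraries. Of all genes tested, 4.71% did. The median log2 difference over these 6 members, Aim2 included, was 0.65, against 0.02 over all genes tested, and Ifi204 ranked 24th and Ifi203 59th from the largest rise among 11387 genes, where Aim2 ranked 6324th.

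**Figure D3:**
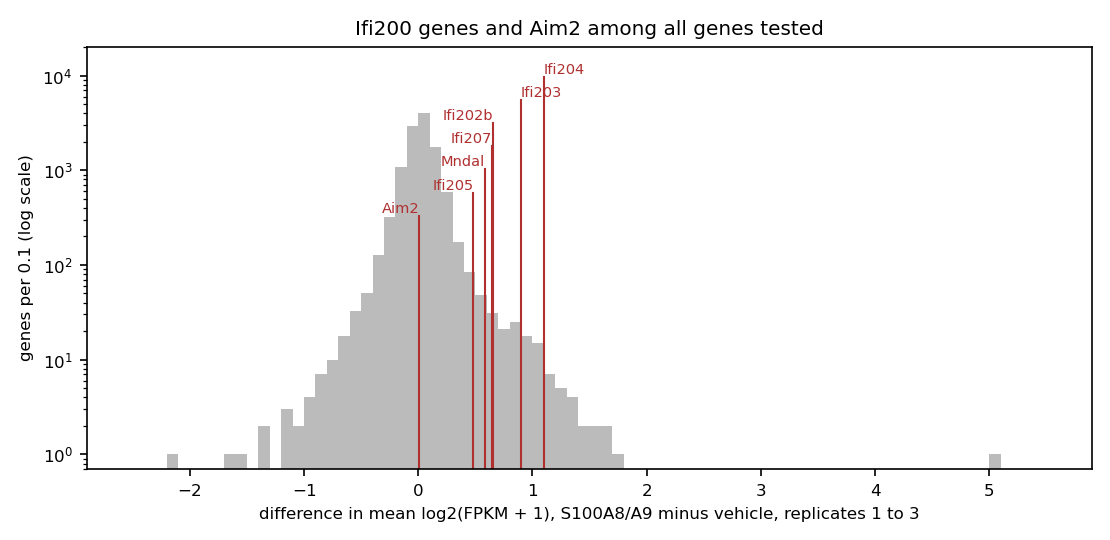
Number of genes (log scale) by difference in mean log2(FPKM + 1), S100A8/A9 minus vehicle, in replicates 1 to 3, for the 11387 genes tested, with red lines at the 7 members. Aim2 sits at the center of the distribution at 0.01. The 5 Ifi200 genes at 1 FPKM or more in every library lie in its right tail from 0.58 to 1.10. Ifi205, at 0.48, passed the filter only through its S100A8/A9 libraries, so its rise was built into its being tested.

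The size of the difference varied between pairs. Over the 5 Ifi200 members at 1 FPKM or more in every library, the median within-pair difference in log2(FPKM + 1) came to 0.91, 0.75 and 0.45 for replicates 1, 2 and 3, against -0.006, 0.006 and 0.079 over all genes. Marker genes of the cells that the cultures could hold differed between replicate numbers too. Summed macrophage markers, all 8 of them at 1 FPKM or more in some library, were 931, 623 and 521 FPKM with S100A8/A9 in replicates 1 to 3, against 880, 625 and 480 FPKM with vehicle. Monocyte markers summed to 20694, 12205 and 9764 FPKM with S100A8/A9, against 17807, 12124 and 9731 FPKM with vehicle, again lowest in replicate 3. The 8 neutrophil markers, of which 5 reached 1 FPKM, summed to 122, 129 and 215 FPKM with S100A8/A9, against 122, 120 and 223 FPKM with vehicle. These markers did not move as one. With S100A8/A9, S100a8 went from 11.4 FPKM in replicate 1 to 113 in replicate 3, S100a9 from 1.88 to 21.3 and Retnlg from 0.239 to 1.02. Mmp8 went from 98.3 to 72.0 and Csf3r from 10.1 to 6.7, while Ly6g was at most 0.636 FPKM in the 6 libraries. Erythroid markers stood at 88.2 FPKM with S100A8/A9 and 87.9 FPKM with vehicle in replicate 3, and at no more than 6.82 FPKM in the other 4 libraries. Markers of plasmacytoid dendritic cells summed to 82.9, 61.3 and 59.8 FPKM with S100A8/A9, against 54.96, 57.3 and 42.5 FPKM with vehicle. Most of that sum was Bst2, an interferon-inducible gene of many cells, while the defining Siglech was listed at 0 in all 6 libraries. Markers of B cells summed to at most 2.94 FPKM and those of T and NK cells to at most 4.80 FPKM. The part of these differences in the members' values was not tested, and in bulk cultures fewer cells of a type cannot be told apart from less RNA per cell. Of 9 dendritic cell markers 5 reached 1 FPKM, with Cd74 between 2530 and 3823 FPKM. The other 4 did not, as Cd209a was listed at 0 in all 6 libraries, Flt3 reached at most 0.921 FPKM, Xcr1 reached at most 0.108 FPKM and Clec9a at most 0.289 FPKM.

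**Figure D4:**
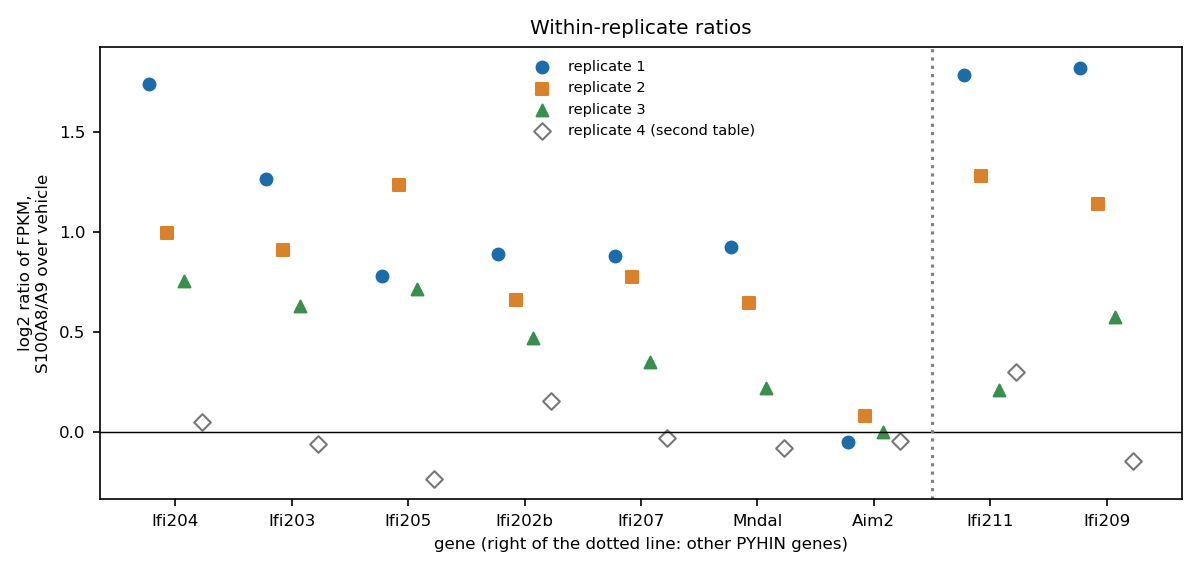
log2 ratio of FPKM, S100A8/A9 over vehicle, within each replicate number, for the 7 members and, right of the dotted line, for Ifi211 and Ifi209. In replicates 1 to 3 every point of the Ifi200 genes lies above 0, which in Ifi205 was built into its passing the filter. The Aim2 points stand for ratios of 0.967 to 1.06. The open diamonds of replicate 4 range from below 0 in 5 members to just above it in Ifi204 and Ifi202b.

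In replicate 4, with 1 library a group and no test, the members' ratios were near 1. Its values implied whole reads for 6 of the 7 members, from which 95% intervals of the ratio were computed that cover counting error only. Ifi202b had 54.5 FPKM (3089 reads) with S100A8/A9 and 48.9 FPKM (2646 reads) with vehicle, a ratio of 1.11 with an interval of 1.06 to 1.17. This was the only member whose interval lay above 1. Ifi204 had 11.0 FPKM with S100A8/A9 and 10.6 FPKM with vehicle, a ratio of 1.04 (0.957 to 1.12), far from the 1.69 to 3.34 of the other pairs. Ifi203 had 12.4 FPKM with S100A8/A9 and 12.96 FPKM with vehicle (ratio 0.959, 0.910 to 1.01). Ifi207 had 11.7 FPKM with S100A8/A9 and 11.9 FPKM with vehicle (ratio 0.980, 0.908 to 1.06). Aim2 had 23.2 FPKM with S100A8/A9 and 23.8 FPKM with vehicle, a ratio of 0.972 (0.921 to 1.03). Mndal, whose values did not come out as whole reads, had 13.8 FPKM with S100A8/A9 and 14.6 FPKM with vehicle. Ifi205 was at 0.179 FPKM (25 reads) with S100A8/A9 and 0.210 FPKM (28 reads) with vehicle, with a ratio of 0.852 (0.477 to 1.52). For Ifi202b, Ifi203, Ifi204 and Ifi207 the upper bounds lay below the smallest ratio of replicates 1 to 3, whose own counting error is unknown. The upper bound of Ifi205, 1.52, also lay below its smallest ratio there, 1.64, but those ratios were tied to its passing the filter. Levels in replicate 4 come from a table made in another way, and are not set against those of replicates 1 to 3.

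Relatives can share reads, and the amount of common sequence differed between members. Of the distinct stretches of 50 bases in the annotated transcripts of a gene, those also present in another gene made up 20.02% for Ifi204, 19.6% for Mndal, 18.6% for Ifi205, 12.4% for Ifi203 and 7.29% for Ifi207. For Aim2 the share was 0.742%, and for Ifi202b 0%. With stretches of 100 bases, the lower end of the fragment lengths that the protocol gives, the highest share among members was 15.04%, in Ifi205. Aim2 and Ifi202b had the lowest shares of the members at both lengths. The partner with most in common with Ifi204 was Ifi211, which held 521 of its 3512 stretches of 50 bases, and that of Ifi203 was the pseudogene Ifi203-ps, with 610 of 6896. How the authors counted reads that match several genes is not stated in the sources used here, nor is strand. The amount by which shared reads move the value of a member is therefore unknown, and it depends also on the level of the partner. Ifi205, at 0.732 to 1.76 FPKM, had 774 of its 4175 stretches in common with Ifi211, at 5.16 to 23.3 FPKM, and 262 with Mndal, at 23.5 to 64.98 FPKM.

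**Figure D5:**
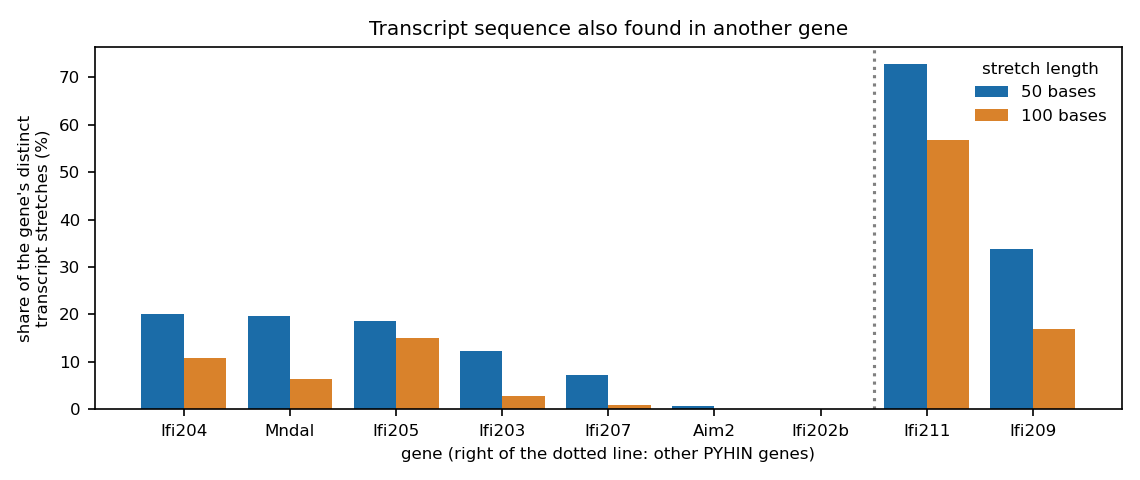
Share of each gene's distinct transcript stretches (%), 50 or 100 bases long, that also occur in a transcript of another gene, for the 7 members and, right of the dotted line, Ifi211 and Ifi209. Shares at 50 bases run from 0% in Ifi202b to 20.02% in Ifi204 among members, and reach 72.8% in Ifi211.

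Of the 6 other PYHIN genes, 2 passed the filter. Both were higher in each pair, as were 19.4% of all genes tested, without either passing the test. Ifi211 had 23.3, 15.5 and 5.97 FPKM with S100A8/A9, against 6.77, 6.40 and 5.16 FPKM with vehicle (adjusted p = 0.284 in limma with the block). Ifi209 had 11.0, 5.54 and 2.46 FPKM with S100A8/A9, against 3.12, 2.51 and 1.65 FPKM with vehicle (adjusted p = 0.200 in limma with the block). In both genes the ratio was largest in replicate 1, at 3.44 and 3.53, and smallest in replicate 3, at 1.16 and 1.49. In these 2 genes 72.8% and 33.7% of 50-base stretches were shared with another gene. The remaining Ifi206, Ifi208, Ifi213 and Ifi214 reached 1 FPKM in at most 2 of the 6 libraries, with a highest value of 2.20 FPKM.

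No gene of a list of inflammasome genes passed the test. Besides Pycard, Casp1, Il1b, Il18 and Gsdmd, the list held Casp4, Casp8, Nlrp3, Nlrc4, Mefv, Zbp1, Panx1 and Ninj1. In this list 0 of 13 tested genes passed with or without the block. In each pair 10 were higher, against 19.4% of all genes tested. The median log2 difference was 0.18, against 0.02 over all genes. The smallest p belonged to Il1b, the cytokine that caspase-1 matures, with 3.12, 5.82 and 10.3 FPKM with S100A8/A9, against 1.85, 3.61 and 6.75 FPKM with vehicle (adjusted p = 0.0631 in limma with the block). In replicate 4 Il1b was at 52.6 FPKM with S100A8/A9 and 29.1 FPKM with vehicle, a ratio of 1.80 (1.70 to 1.91). Pycard, which encodes ASC, and Casp1 are named for their role, after their values were seen. Pycard was at 7.13 ± 0.720 FPKM with S100A8/A9 and 6.39 ± 1.18 FPKM with vehicle, and Casp1 at 19.2 ± 2.79 FPKM with S100A8/A9 and 15.7 ± 0.492 FPKM with vehicle (SD, n = 3 each), with adjusted p-values of 0.788 and 0.444 in limma with the block.

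In the list of DNA sensing through STING 0 of 15 tested genes passed in either fit, and the median was 0.05. Of the 15, 5 were higher in each pair, against 19.4% of all genes tested. With the block, 1 gene of this list passed without replicate 1 (40 of 10998 over all genes) and 1 without replicate 2 (98 of 10917). Irf7, a transcription factor that amplifies interferon production, had the smallest p there, with 51.8, 32.4 and 20.9 FPKM with S100A8/A9, against 17.1, 18.1 and 12.5 FPKM with vehicle (adjusted p = 0.0683 in limma with the block). Cgas, the enzyme that makes the STING ligand, was at 2.78 ± 0.303 FPKM with S100A8/A9 and 2.18 ± 0.187 FPKM with vehicle (SD, n = 3 per group). It did not pass (adjusted p = 0.661 in limma, block included) and was also named after its values were seen. Among nucleases that remove DNA or RNA-DNA hybrids, 0 of 9 tested genes passed, and the median was 0.05. Of the 9, 2 were higher in each pair, against 19.4% of all genes tested. With the block, 1 gene of this list passed when any of the 3 pairs was left out. Over all genes, 40 of 10998, 98 of 10917 and 7 of 10892 passed without replicate 1, 2 and 3. The smallest p was that of Trex1, the main cytosolic DNA exonuclease, with 44.9, 40.5 and 28.9 FPKM with S100A8/A9, against 14.3, 21.9 and 17.5 FPKM with vehicle (adjusted p = 0.0683 in limma with the block). Each treated library of Irf7, Trex1 and Cgas stood above all vehicle libraries, as in 4.71% of all genes tested.

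Of 11 tested genes of type I interferon signaling, 2 rose with the block, against 0.501% of all genes tested that were called higher. In the list 0 fell and 9 did not pass, with a median of 0.15. In each pair 5 were higher, against 19.4% of all genes tested. Usp18, which restrains interferon receptor signaling, had 26.4, 21.8 and 11.3 FPKM with S100A8/A9, against 10.7, 8.36 and 4.89 FPKM with vehicle. Stat2, which carries the receptor's signal to the nucleus, had 67.7, 72.5 and 51.5 FPKM with S100A8/A9, against 28.5, 38.0 and 30.6 FPKM with vehicle. Both genes had each S100A8/A9 library above all vehicle libraries, as did 4.71% of all genes tested. Their adjusted p-values in limma with the block were 0.00917 and 0.0289. No gene of the list passed without the block, without the filter or with all 8 libraries. With the block 1 passed without replicate 3 (7 of 10892 over all genes) and 1 under each of 3 other scalings (3 of 11387). In replicate 4 the ratio was 0.872 for Usp18 and 1.18 for Stat2. Transcripts of interferon itself were scarcely seen, as Ifnb1 was listed at 0 in all 3 S100A8/A9 libraries and at no more than 0.168 FPKM in vehicle libraries, and Ifna4 reached 0.142 FPKM in 1 vehicle library.

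The 5 Ifi200 members at 1 FPKM or more in every library moved together across the 6 libraries of the first table. Pearson's r of log2(FPKM + 1) between pairs of them ran from 0.931 between Ifi207 and Ifi202b to 0.997 between Ifi203 and Ifi202b. In contrast, r of Aim2 with them ran from 0.262 to 0.563. For Ifi205, whose difference between groups was built into its passing the filter, r with them ran from 0.828 to 0.887. These points share the treatment, the pairing and, for relatives, reads. Outside the family, the genes closest to the mean of the 7 members, Ifi205 included, were Oas1a, an oligoadenylate synthetase (r = 0.995), Eif2ak2, the RNA-activated kinase PKR (r = 0.994), Ifit3 (r = 0.993), Cep57l1 (r = 0.990) and Slfn5 (r = 0.990). Oas1a, for example, had 29.7, 22.1 and 11.3 FPKM with S100A8/A9, against 13.8, 12.1 and 6.78 FPKM with vehicle, so it too was lowest in replicate 3 of each group.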

How the data were processed

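Illumina libraries were made from fragmented poly(A) RNA, per the labels' protocols. HISAT2, featureCounts, Subread, DESeq2 1.34.0 and mm10 are named, without their roles, per the submitters' processing notes. The values that the authors deposited for each Ensembl gene were taken as FPKM, since no header names a unit. This rests on their size and, in the second table only, on their steps. The first table listed 55450 genes with FPKM sums from 282921 to 303660, and the second 24848 genes with sums of 331268 and 344166. In the second table, 98.8% of S100A8/A9 and 98.5% of vehicle values worth up to 20 reads were whole within 0.01 reads, given GENCODE M21 exon lengths, which implied 33406300 and 31889700 reads. Of the first table's values 3.06% to 4.55% were whole, so its depth is unknown.

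FPKM were used as deposited. Tests were limma-trend (limma 3.58.1, R 4.3.3) on log2(FPKM + 1), two-sided, on replicates 1 to 3, keeping genes that reached 1 FPKM in 3 or more libraries, with an adjusted p under 0.05 as the threshold. Fold changes on this scale understate changes of low genes. The p-values measure the spread between libraries, or between pairs with the block, which may be technical. The pairing was checked before calls were compared: deviations from the group means correlated at 0.59, 0.25 and 0.52 for same-numbered libraries and at -0.01 or below for others. Deviations within a group cancel out, so positive values for same-numbered libraries make the others negative on balance, and these are no separate check. Ratios are of FPKM, and intervals in replicate 4 are exact binomial (Clopper-Pearson) ones on the 2 read numbers, scaled to the FPKM ratio. The fit was tested on simulated data. Symbols were looked up by Ensembl ID, which matched all 55450 genes of the first table and 24388 of the second, and positions from GENCODE M21 (mm10). Genes were named by rule: all members, other tested PYHIN genes, up to 4 called genes of each pathway list with the block or else the one with the smallest p, and the 5 closest genes by correlation, without predicted models. Members and lists were chosen with earlier results of these data known.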

Additional observations from a re-analysis of the deposited data

How the results depend on the processing

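The 5 Ifi200 members at 1 FPKM or more in every library stayed higher with S100A8/A9 under each of 24 alternatives, with log2 differences from 0.32 (Mndal) to 1.57 (Ifi204). The block by itself and the filter leave this difference as it is by construction, so they are no check of it. Ifi205 was below the filter when an S100A8/A9 library or a pair was left out. The count of members called was 0 without the block and 2 with the replicate block, also at a pseudocount of 0.1 FPKM. It lay between 0 and 3 when a pair was left out with the block. The count of all genes called was 0 without the block and 0 to 1 when a library was left out. With the replicate block it was 59, 62 at a pseudocount of 0.1, 39 at a common sum and 3 after quantile normalization or scaling by the upper quartile or by median-of-ratios factors, and without replicate 1, 2 or 3 it was 40, 98 or 7. It was 0 without the filter or with all 8 libraries. With or without the block, the log2 difference of Aim2 was -0.0170 with median-of-ratios factors, -0.00866 at a common sum, -0.0434 with upper-quartile factors, -0.0404 after quantile normalization and -0.00173 with all 8 libraries. It ran from -0.0371 to 0.0346 when a library was left out and from -0.0224 to 0.0389 when a pair was left out with the block, and no adjusted p of Aim2 was under 0.05. Depth in replicates 1 to 3 could not be recovered, so counting error there is unknown.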
